A study of Macaca mulatta with 12 samples.

Results

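The miRNAs of the imprinted DLK1-DIO3 region were examined in small RNA sequencing profiles of the rhesus macaque (Macaca mulatta), leaving out the miR-376 hairpins. The members were the pre-miRNAs that the study's list of conserved pre-miRNAs places on the plus strand of the chromosome of mir-411, with a start between 163.15 and 163.45 Mb in the build Mmul_8.0.1. These were 45 hairpins, out of 832 in the readable part of that list. They carry 81 annotated mature miRNAs with 78 distinct sequences, of 1221 distinct mature sequences in all, because miR-329-3p, miR-1185-5p and miR-1185-3p each occur in 2 of the hairpins. The rest of the list could not be read, and statements about all miRNAs or other mature sequences cover the readable part only. The profiles came from wild-type macaques, 36 months old and not treated. There were 12 profiles of 8 tissues, namely 2 each of kidney, muscle, small intestine and large intestine and 1 each of liver, lung, occipital lobe and spinal cord. The study sampled 2 animals, and the labels do not say which animal gave which profile or whether profiles with the same tissue came from different animals. Each p-value therefore measures only the spread between these profiles. The tissues are mixtures of cells, so that more cells of a type cannot be told apart from more RNA in each cell.

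Imprinted genes are expressed from the copy of 1 parent, and the miRNAs of the DLK1-DIO3 region are known to be made from the maternal chromosome, as parts of long non-coding transcripts that also hold small nucleolar RNAs. A hairpin is cut from such a transcript and then opened into a 5p and a 3p arm, and either arm can become the mature miRNA that guides a silencing complex to messenger RNAs through its seed. The cluster is best known for its high level in the brain, where members such as miR-134 act in neurons, and for its activity in the embryo and placenta. The deposited files hold no allele information, so imprinting itself was not measured.

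Along the chromosome, the members formed an upstream group of 10 hairpins, from mir-770 to mir-370, and a downstream group of 35, from mir-379 to mir-656. In Mmul_8.0.1 mir-770 lies at 163184992 to 163185089, mir-370 at 163245310 to 163245384, mir-379 at 163357370 to 163357436 and mir-656 at 163400519 to 163400596. The start of mir-379 is 112060 bp from that of mir-370. The RefSeq gene list of another build, T2T-MMU8v2.0, places the cluster on chromosome 7, matched 42 of the 45 hairpins by symbol and has 36 small nucleolar RNA genes between MIR370 and MIR379. There, mir-431, mir-433, mir-127, mir-432 and mir-136 lie within RTL1, a retrotransposon-derived gene to which these 5 hairpins are antisense.

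The sequences of the 8 members with the highest mean level are shown first, because they carried most of the reads. Capitals mark the seed, bases 2 to 8 counted from the 5′ end. No pair of these 8 shares a seed.
miR-411-5p: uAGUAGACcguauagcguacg
miR-127-3p: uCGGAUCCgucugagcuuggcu
miR-381-3p: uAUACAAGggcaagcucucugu
miR-409-3p: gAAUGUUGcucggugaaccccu
miR-410-3p: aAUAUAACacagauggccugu
miR-889-3p: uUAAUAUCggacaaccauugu
miR-485-5p: aGAGGCUGgccgugaugaauuc
miR-654-3p: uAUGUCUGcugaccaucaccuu

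Over all members there were 69 distinct seeds, of which 7 were shared by at least 2 members. The largest such group holds 4 members of the 5p arm, and its reads came mostly from miR-656-5p, with 149 of 174.
miR-494-5p: aGGUUGUCcguguugucuucucu
miR-323b-5p: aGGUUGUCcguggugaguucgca
miR-410-5p: aGGUUGUCugugaugaguucg
miR-656-5p: aGGUUGUCugugagguguuca

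The next pair is miR-379-3p and miR-411-3p, which share their seed and differ at 1 of 21 positions. In total 6 of the 69 seeds also occur in a mature sequence outside the cluster in the readable part of the list.
miR-379-3p: uAUGUAACaugguccacuaac
miR-411-3p: uAUGUAACacgguccacuaac

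The 12 files held 22118095 to 25579064 valid reads each, so that 1 read stands for 0.391 to 0.452 RPTM (reads per 10000000 valid reads). A read counts once whatever its length, and RPTM values of different miRNAs can be compared as read numbers, within the bias of library preparation. Between 35.9% (liver) and 68.4% (kidney 1) of the reads were assigned to a mature miRNA. The neuronal markers miR-124a-3p, miR-9-5p and miR-9-3p summed to 265452 and 395067 RPTM in the 2 neural tissues and to 173 to 995 elsewhere, miR-133a-3p reached 129703 and 144690 in muscle against 911 at most elsewhere, and miR-122a-5p was 7320 in liver against 4.37 at most elsewhere, each in the tissue of the label. The oligodendrocyte marker miR-338-3p was 2765 and 7468 RPTM in the neural tissues and 24.0 to 560 elsewhere. The part of the different cell types in the neural values was not tested. Reads had to match exactly, and no member shared a read with another mature sequence.

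The cluster as a whole was highest in the neural tissues and next highest in liver. The summed level of its members was 84419 RPTM in occipital lobe and 106862 in spinal cord. It was 24800 RPTM in liver and 5559 in lung. In the paired tissues the mean was 5974 ± 1005 RPTM in kidney, 5929 ± 250 in muscle, 4589 ± 180 in small intestine and 6621 ± 355 in large intestine (SD, n = 2 each). The neural mean was 10.7 times the mean of the other 6 groups, and the liver profile was 3.61 times the highest other non-neural profile, large intestine 1. The remaining 9 profiles lay between 4462 and 6872 RPTM, and the 2 kidney profiles alone were 6685 and 5263. The share of all miRNA reads that the cluster took was 1.5% in occipital lobe, 1.84% in spinal cord, 0.691% in liver and at most 0.133% in the other profiles.

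**Figure D1:**
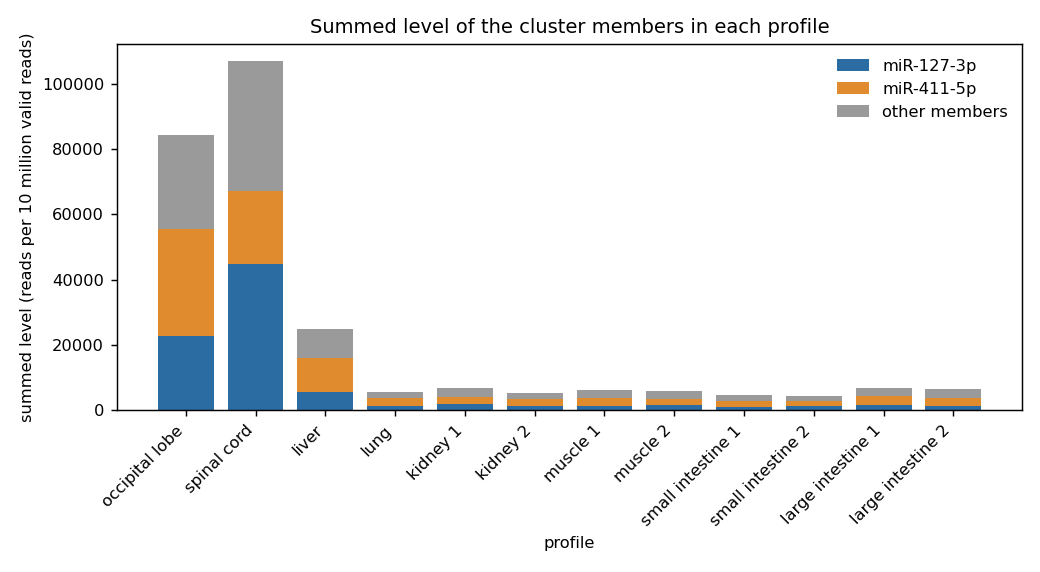
Summed level of the cluster members in RPTM (vertical axis) in each of the 12 profiles (horizontal axis), with miR-127-3p, miR-411-5p and all other members stacked. Occipital lobe (84419) and spinal cord (106862) stand above liver (24800), and the other 9 profiles lie between 4462 and 6872.

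The size of these ratios moved with the scale, and the cause of this was not tested. Scaled by TMM, which sets libraries so that most miRNAs do not change, the neural mean was 4.93 times the mean of the other groups, liver was 2.12 times the next non-neural profile, and the order of the 2 neural tissues turned, with occipital lobe at 1.10 times spinal cord in place of 0.790 times. Neural above liver and liver above the rest held on both scales.

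Only 2 members made up 59.7% to 68.9% of the cluster's reads in every profile. miR-127-3p, which lies antisense to RTL1, was 22710 RPTM in occipital lobe, 44681 in spinal cord, 5490 in liver, 1152 in lung, 1964 and 1427 in kidney, 1353 and 1585 in muscle, 855 and 1254 in small intestine and 1588 and 1452 in large intestine. miR-411-5p, of the downstream group, was 32770 RPTM in occipital lobe, 22561 in spinal cord, 10380 in liver, 2678 in lung, 2240 and 2042 in kidney, 2481 and 1871 in muscle, 2002 and 1605 in small intestine and 2871 and 2354 in large intestine. Both were highest in the neural tissues with liver next and no overlap between these 3 profiles and the rest. They differed in which neural tissue was higher, on the RPTM scale and with TMM scaling: miR-127-3p took 41.8% of the cluster's reads in spinal cord and 26.9% in occipital lobe, and miR-411-5p took 21.1% and 38.8%.

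The other members spanned a wide range. Of the 78 sequences, 75 had at least 1 read and 66 at least 10 reads over the 12 profiles, while 12 had a mean of at least 100 RPTM. miR-665-5p, miR-1197-3p and miR-487a-3p had no read, which allows up to 3 reads in each profile as a matter of counting error. There were 30 members with reads in all 12 profiles and 11 with reads only in the neural profiles, each of these 11 with 48 reads or fewer. A member had its highest level in spinal cord in 55 cases, in occipital lobe in 13 and in liver in 5, and the other two, miR-494-5p and miR-495-5p, had 1 and 2 reads in all. The filter of a mean of at least 5 RPTM and an SD of at least 1 left 43 members of 371 miRNAs for the tests, and the 35 members below it were not tested. A member could pass this filter through its neural level alone. Over all 78 members, both neural profiles were above every other profile in 57, of which 20 were below the filter. The share over all mature sequences was not counted for these 57, for the highest profile, or for members read in all 12 profiles or only in the neural ones. None of these counts is therefore set against other miRNAs.

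**Figure D2:**
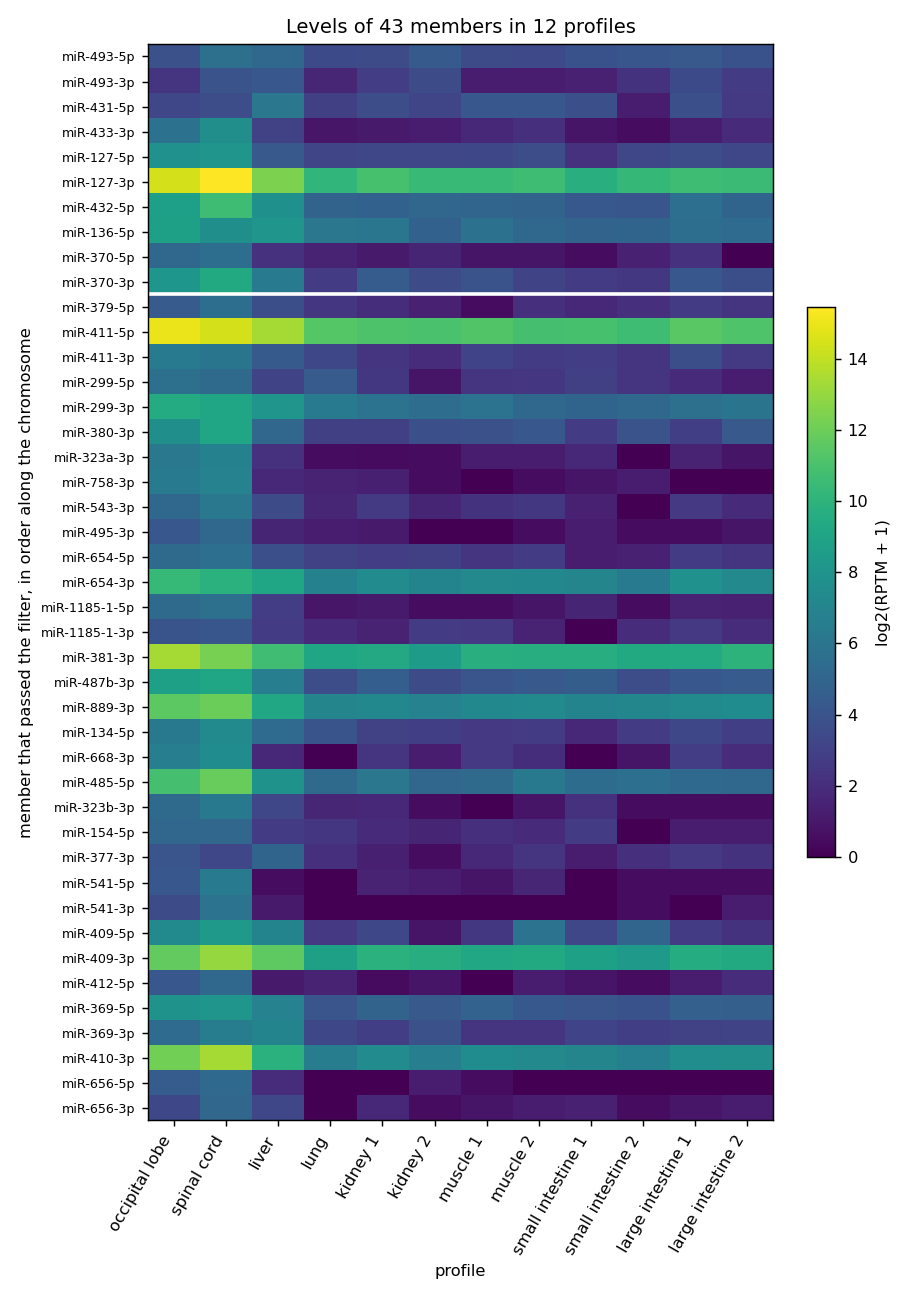
Level of the 43 members that passed the filter, as log2(RPTM + 1) in colour, in the 12 profiles (columns), with members (rows) in order along the chromosome and a white line between the upstream and the downstream group. The columns of occipital lobe and spinal cord are the brightest for most rows, with liver next.

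The first comparison asked how the neural tissues, occipital lobe and spinal cord as 1 group, differ from the mean of the other 6 groups. Of the 43 members tested, 38 were higher in the neural tissues and 0 were lower, by edgeR's quasi-likelihood test with a Benjamini-Hochberg adjusted p under 0.05. Over all 371 miRNAs 43.7% were called higher and 24.3% lower, and among the 328 that are not members 37.8% were called higher and 27.4% lower. The median log2 fold change was 3.09 over the members tested, 0.89 over all miRNAs and 0.45 over the others. As a ratio of the neural mean RPTM to that of the other 6 groups, the median was 12.6 over the members and 2.57 over all miRNAs. At an unadjusted p under 0.05 the members called were 38 as well, and 37 of the 43 had both neural profiles above every other profile, against 43.7% of all miRNAs and 38.1% of the others. With library sizes set by total reads, the median of all miRNAs was itself 1.97 on the log2 scale and that of the members 4.29.

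Both groups along the chromosome took part. In the upstream group, 7 of 10 tested members were higher, with a median log2 fold change of 3.24, and in the downstream group 31 of 33, with 2.87. Of the members antisense to RTL1, 5 of 6 tested were higher. Leaving out 1 neural profile also changed which members were tested, since the filter was applied again. It left 34 members in the fit without spinal cord and 38 without occipital lobe. The remaining neural profile is then assumed to vary like the other groups, so that counts of calls from these fits are not set against the count above.

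**Figure D3:**
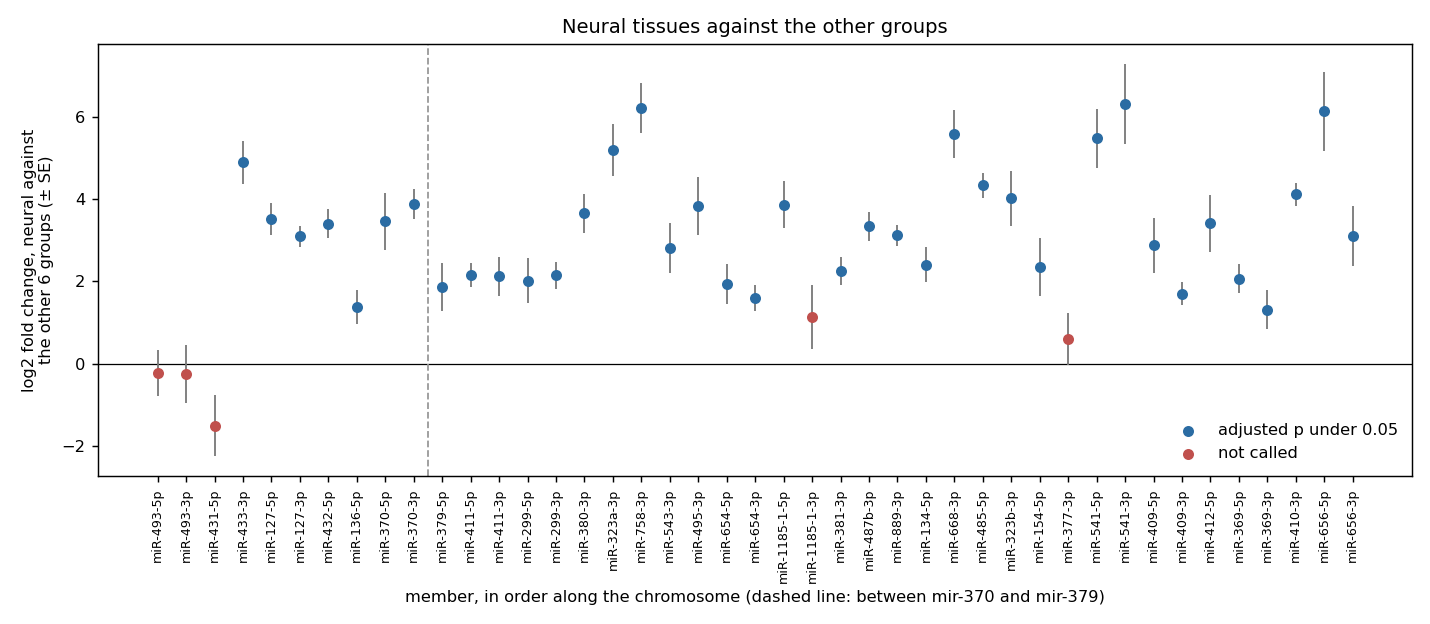
Log2 fold change of the neural tissues against the other 6 groups (vertical axis, points, with bars of ± 1 SE) for the 43 members tested, in order along the chromosome (horizontal axis). Blue points passed an adjusted p of 0.05 and red points did not. All but miR-493-5p, miR-493-3p and miR-431-5p lie above 0.

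Among the 8 most abundant members, all were higher in the neural tissues. The log2 fold changes were 3.09 ± 0.25 (SE) for miR-127-3p and 2.15 ± 0.30 for miR-411-5p, with adjusted p of 3.9e-07 and 4.0e-05 by edgeR. miR-410-3p was 4585 and 10578 RPTM in occipital lobe and spinal cord and had a median of 163 in the 10 non-neural profiles, with a log2 fold change of 4.11 ± 0.28. miR-485-5p was 1875 and 3653 RPTM against a median of 42.0, a log2 fold change of 4.33 ± 0.30. These last had the largest changes of the 8. miR-889-3p was 2967 and 4093 RPTM against a median of 149, with a log2 fold change of 3.11 ± 0.25. miR-381-3p was 10505 and 5041 RPTM against a median of 735, with a log2 fold change of 2.25 ± 0.34. miR-654-3p and miR-409-3p changed least of the 8, by 1.59 ± 0.32 and 1.70 ± 0.28 on the log2 scale, and miR-409-3p in liver, at 3200 RPTM, came near the 3477 RPTM of occipital lobe.

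The largest fold changes belonged to members that were close to absent outside the neural tissues. miR-541-3p was 10.4 and 58.1 RPTM in occipital lobe and spinal cord and 1.28 at most elsewhere. miR-758-3p was 81.3 and 113 RPTM against 2.42 at most. miR-656-5p was 21.3 and 37.2 RPTM against 2.82 at most. In all 3 the neural profiles lay far above every other profile, with neural means 99.9, 90.6 and 48.1 times the mean of the other 6 groups. In these, in miR-668-3p and in miR-541-5p at least 1 of the other groups had no read, so that the fitted log2 fold changes of 6.30 ± 0.98, 6.21 ± 0.61, 6.12 ± 0.95, 5.57 ± 0.59 and 5.47 ± 0.71 depend on the prior count. miR-323a-3p, with 72.1 and 111 RPTM against 3.63 at most, rose by 5.18 ± 0.63 and miR-433-3p, with 55.2 and 200 against 6.86 at most, by 4.88 ± 0.52 on the log2 scale (adjusted p of 1.6e-05 and 4.6e-06 by edgeR). Outside the neural tissues, miR-541-3p, miR-758-3p, miR-656-5p and miR-323a-3p stayed below the minimum mean of 5 RPTM in every profile. These members could pass the filter only through a higher neural level, so that the filter set the direction of their change. The same holds for any member with a mean below 5 RPTM outside the neural tissues, among them miR-668-3p and miR-433-3p. Such members are among those counted above as higher in the neural tissues, and how many they are was not counted. miR-134-5p, which is known to limit the size of dendritic spines, was 73.4 and 158 RPTM with 41.1 in liver and 15.3 at most in the others, and was higher by 2.40 ± 0.43 (adjusted p = 0.00032 by edgeR).

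miR-369-3p and miR-136-5p were called higher by 1.30 ± 0.47 and 1.37 ± 0.41 on the log2 scale, although liver was above both neural profiles for miR-369-3p and above spinal cord for miR-136-5p. The call of miR-369-3p was absent with DESeq2, and that of miR-136-5p without occipital lobe. Of the tested members, 5 did not pass in the neural comparison. miR-493-5p was 13.0 RPTM in occipital lobe, 50.6 in spinal cord and 34.3 in liver, with a log2 fold change of -0.24 ± 0.56, and its partner arm miR-493-3p had -0.26 ± 0.70. The sign of both turned with total reads as library size, to 1.04 and 1.0. miR-1185-1-3p had 1.13 ± 0.78 and miR-377-3p 0.60 ± 0.63. miR-431-5p was the lowest, with a log2 fold change of -1.51 ± 0.75 and an adjusted p of 0.089 by edgeR. It was 8.69 RPTM in occipital lobe and 11.7 in spinal cord, 69.4 in liver, 6.56 in lung, 11.7 and 8.27 in kidney, 17.1 and 17.0 in muscle, 12.7 and 1.27 in small intestine and 12.7 and 5.10 in large intestine. Its neural values lay within the range of the other tissues, and liver alone stood apart.

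Against muscle alone, 36 of the 43 members were higher in the neural tissues and 0 lower by edgeR, where 38.3% of all miRNAs were called higher and 29.1% lower, or 32.3% and 32.9% of those that are not members. This comparison uses the same neural profiles as the one above. The smallest p-values were those of miR-410-3p, miR-485-5p, miR-889-3p, miR-127-3p, miR-370-3p and miR-487b-3p. miR-370-3p was 281 and 659 RPTM in the neural profiles and 14.2 and 7.84 in muscle, a log2 fold change of 4.33 ± 0.62. miR-487b-3p was 443 and 546 RPTM against 15.9 and 19.2, a log2 fold change of 3.83 ± 0.58. In both, the neural and muscle profiles did not overlap. At an unadjusted p under 0.05 the count was 37, and miR-154-5p was the member added.

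The non-neural tissues with 2 profiles were each compared with the other 5 non-neural groups, and few members differed. In muscle 0 members were higher and 1 was lower by edgeR, where 21% of all miRNAs were called higher and 10.2% lower (23.8% and 11.3% of those that are not members), and 3 members passed an unadjusted p under 0.05. The lower one was miR-369-3p, at 4.17 and 3.92 RPTM in muscle, 125.8 in liver and 6.26 to 13.2 in the remaining non-neural profiles, with a log2 fold change of -2.03 ± 0.64 (adjusted p = 0.028 by edgeR). Muscle held its 2 lowest values. Without liver the change was -1.33 and not called, and the call was also absent without either muscle profile. In large intestine 1 member was higher and 0 lower, where 9.97% of all miRNAs were called higher and 4.04% lower (11% and 4.57% of those that are not members), and 2 passed an unadjusted p under 0.05. This was miR-668-3p, at 5.88 and 2.98 RPTM in large intestine, 4.30 and 1.24 in kidney, 5.01 and 3.05 in muscle, 2.42 in liver, 0.844 and 0 in small intestine and 0 in lung. Its values in large intestine overlapped those in muscle and kidney, and the fitted log2 fold change of 2.78 ± 0.77 depends on the prior count because lung had no read. The call was absent without either large intestine profile and also without kidney 2, muscle 2 or small intestine 1. Without liver, 4 members were higher in large intestine, among them miR-410-3p, miR-654-3p and miR-889-3p.

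In kidney 0 members were higher and 0 lower by edgeR, where 11.9% of all miRNAs were called higher and 4.85% lower (13.4% and 5.49% of those that are not members), and 2 members passed an unadjusted p under 0.05. With DESeq2 the counts in kidney were also 0 and 0. In small intestine 0 members were higher and 0 lower by edgeR, where 13.5% of all miRNAs were called higher and 4.31% lower (15.2% and 4.88% of those that are not members), and again 2 passed an unadjusted p under 0.05. DESeq2 gave 0 and 0 there as well. With total reads as library size 3 members were lower in small intestine, miR-299-3p, miR-409-3p and miR-654-5p.

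Liver has 1 profile and allows no test, and its values are given as a description. Of the 43 members that passed the filter, 37 were higher in liver than in each of the other 9 non-neural profiles, as were 21.3% of all miRNAs and 12.8% of those that are not members. For 24 members the liver value was at least 2 times the next non-neural profile, as for 9.97% of all miRNAs. The liver library also had the lowest share of reads assigned to miRNAs, 35.9%, and the part of this in the liver values was not tested. The largest ratio was that of miR-369-3p, at 125.8 RPTM in liver and 13.2 in kidney 2, the next, or 9.52 times. miR-377-3p was 30.3 RPTM in liver and 4.97 in large intestine 1, the next non-neural profile, and it was also above occipital lobe (16.1) and spinal cord (8.78). miR-410-3p was 930 RPTM in liver and 197 in large intestine 2, and miR-432-5p was 215 in liver and 48.8 in large intestine 1. The members in which liver was not the highest non-neural profile were miR-541-5p, miR-541-3p, miR-299-5p, miR-412-5p, miR-668-3p and miR-1185-1-3p. miR-299-5p was highest in lung there, with 20.5 RPTM against 8.07 in liver.

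Occipital lobe and spinal cord have 1 profile each, so that their difference has no replicate check and the intervals given here cover counting error only. Of the 43 members with at least 100 reads in the 2 neural profiles, 30 (69.8%) were lower in occipital lobe than in spinal cord with a 95% interval of the RPTM ratio below 1, 5 (11.6%) were higher with an interval above 1, and 8 had an interval that holds 1. Among all 302 mature sequences with as many reads 51.7% were lower and 35.4% higher, and among the 259 that are not members 48.6% were lower and 39.4% higher. The median ratio was 0.530 over the members and 0.836 over all. With TMM scaling 22 members were lower and 10 higher. Of all 302 sequences 38.1% were then lower and 50.7% higher, and of the 259 that are not members 35.9% and 55.2%. The medians on that scale were 0.737 over the members and 1.16 over all.

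The 5 members with a higher level in occipital lobe were miR-136-5p, miR-381-3p, miR-411-5p, miR-654-3p and miR-299-3p. miR-136-5p was 441 RPTM in occipital lobe and 203 in spinal cord, a ratio of 2.17 (1.94 to 2.42), and miR-381-3p was 10505 and 5041, a ratio of 2.08 (2.04 to 2.13). miR-411-5p had a ratio of 1.45 (1.44 to 1.47). At the other end, miR-541-3p had a ratio of 0.179 (0.111 to 0.278), its partner arm miR-541-5p one of 0.206 (0.142 to 0.291) and miR-433-5p, at 10.4 and 42.7 RPTM, one of 0.244. The next 5 at this end were miR-493-5p, miR-432-5p, miR-433-3p, miR-656-3p and miR-770-5p, all but miR-656-3p of the upstream group. Of the 10 hairpins with at least 100 neural reads on each annotated arm, the intervals of the arms overlapped in 5 (mir-299, mir-411, mir-433, mir-541 and mir-656) and did not in 5 (mir-127, mir-369, mir-370, mir-409 and mir-654). On the RPTM scale the arms of mir-654 lay on opposite sides of 1, with 0.831 for miR-654-5p and 1.39 for miR-654-3p. TMM scaling multiplies every ratio by the same factor. Both arms were then above 1, with 1.94 for miR-654-3p, and only miR-654-3p had an interval above 1. The high ratio of miR-136-5p was not shared by the second arm of its hairpin, which the list does not annotate and which had more reads, with a ratio of 0.908 (0.870 to 0.948). With TMM scaling the ratio of this second arm was 1.26 and that of miR-136-5p 3.01, so that the direction of the second arm depends on the scale.

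By position, 8 of 10 upstream members with enough reads were lower in occipital lobe and 1, miR-136-5p, was higher. From mir-379 to mir-381, 6 of 14 were lower and 4 higher. From mir-487b to mir-656, 16 of 19 were lower and 0 higher. The medians of the RPTM ratio were 0.364, 0.796 and 0.530. On the RPTM scale the 5 members with an interval above 1 lay within mir-136 to mir-381, and the boundary at mir-381 was chosen after the values were seen. With TMM scaling, 2 upstream members were higher and 7 lower, 6 and 3 from mir-379 to mir-381, and 2 and 12 from mir-487b to mir-656, and miR-127-5p, miR-487b-3p and miR-369-5p were then higher outside that stretch.

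**Figure D4:**
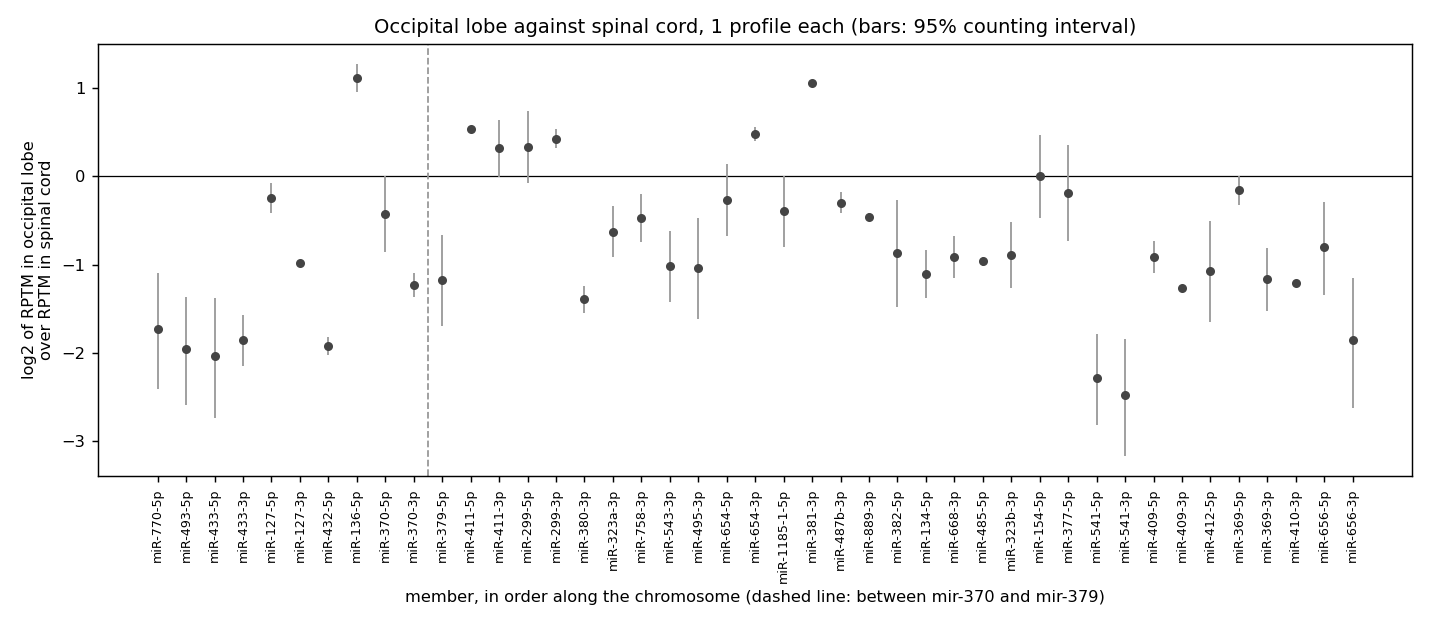
Log2 of the RPTM in occipital lobe over the RPTM in spinal cord (vertical axis) for the 43 members with at least 100 reads in these 2 profiles, in order along the chromosome (horizontal axis), with 95% counting intervals as bars. miR-136-5p and miR-381-3p are the highest and miR-541-3p and miR-541-5p the lowest points.

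The 2 arms of a hairpin are cut from 1 precursor, and their shares of the reads are given here, within the bias of library preparation. Of the 36 hairpins with both arms annotated and at least 10 reads, 16 had more than 90% of their reads from the 3p arm, 7 more than 90% from the 5p arm, and 13 lay between. mir-127, mir-381 and mir-410 were of the first kind and mir-485 of the second. Among the 13 between, mir-1185-1 and mir-1185-2 share all their counted reads, and mir-329-1 and mir-329-2 those of the 3p arm. An arm that begins with UGG, a start treated below, occurs in mir-299, mir-379, mir-412, mir-432, mir-541 and mir-654. The part of that start in their shares was not tested. Within the hairpins with at least 50 reads in at least 4 profiles, the share of the 5p arm changed most in mir-369. Its 5p share was 48.0% in liver (95% exact interval 43.9 to 52.1, 600 reads), 73.7% in spinal cord, 84.9% in occipital lobe and 87.0% and 82.4% in muscle. Liver was the lowest of the 11 profiles with enough reads, and muscle 1, occipital lobe and muscle 2 were the highest. The 5p share of mir-299 was 20.9% in lung (15.8 to 26.8, 225 reads) and 1.82% to 17.6% elsewhere. With reads identical to the mature sequences its range fell from 19.1 to 9.52 percentage points, and its 5p arm begins with UGG. The 5p share of mir-493 was 65.3% to 78.1%.

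Some hairpins had too few reads in most profiles for that comparison but changed their main arm between tissues. The 5p share of mir-377 was 59.8% in occipital lobe (49.0 to 69.9, 92 reads), 75.6% in spinal cord (65.1 to 84.2, 86 reads) and 0% in liver (0 to 4.8, 75 reads). These shares leave out reads with an A-to-G change at position 10 of miR-377-3p, 15 of 52 in occipital lobe, 2 of 23 in spinal cord and 0 of 75 in liver. Counting them would lower the 5p share in occipital lobe and spinal cord. Profiles of the same tissue also differed. miR-409-5p was 9.38 and 0.827 RPTM in kidney, 4.59 and 57.1 in muscle and 8.59 and 32.1 in small intestine, while its partner miR-409-3p was 919 and 803, 615 and 664, and 437 and 332. In large intestine they were 5.43 and 3.83 RPTM for miR-409-5p and 746 and 677 for miR-409-3p. The 5p arm thus differed by more than 3-fold between the profiles of 3 of the 4 tissues, where the 3p arm did not, and in kidney this rested on 24 and 2 reads.

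Of the 9 hairpins for which the list annotates 1 arm only, some had more reads on the other arm. The other arm was counted from exact reads of 18 to 26 nucleotides that overlap the annotated sequence by at most 4. This rule is wider than that for the annotated arms. Reads of the second arm of mir-136 numbered 14170, against 3100 of the annotated miR-136-5p. This 3p arm was 1701 RPTM in occipital lobe, 1872 in spinal cord, 831 in liver, 197 in lung, 220 and 131 in kidney, 199 and 186 in muscle, 160 and 118 in small intestine and 184 and 175 in large intestine. It followed the tissue order of the cluster, with the neural profiles above liver and liver above the rest. For mir-431 the 3p arm had 2445 reads against 439 of miR-431-5p, with 218 RPTM in occipital lobe, 750 in spinal cord, 24.6 in liver and 6.80 at most elsewhere. The 2 arms of mir-431 therefore had different tissue patterns, with the 3p arm highest in spinal cord and the 5p arm in liver. For mir-539 the 3p arm had 621 reads against 52 of miR-539-5p, with 82.1 RPTM in occipital lobe, 129 in spinal cord and 16.9 in liver. The most frequent read of each of these arms is printed because the list gives no mature sequence there. It made up 11005 of the 14170 reads for mir-136, 551 of 2445 for mir-431 and 215 of 621 for mir-539. Capitals again mark bases 2 to 8 of the printed read, and the spread of starts on these arms was not counted.
mir-136 3p arm: cAUCAUCGucucaaaugagucu
mir-431 3p arm: uUGCAGGUcgucuugcagggcuu
mir-539 3p arm: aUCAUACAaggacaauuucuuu

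The 5′ ends of the reads set the seed, and most abundant members had a sharp start. At least 96.1% of the reads of miR-127-3p, miR-381-3p, miR-410-3p, miR-889-3p, miR-485-5p and miR-654-3p began at the annotated base. miR-411-5p did not: 50.5% of its reads began there and 49.4% began 1 base earlier, which shifts the seed by 1 base. The earlier start took between 44.9% and 51.8% of the reads in the 12 profiles, while the level of miR-411-5p ranged from 1605 to 32770 RPTM. miR-409-3p also had a second start 1 base earlier, with 5.81% to 44.5% of its reads. The most frequent reads with the earlier start are given for comparison with the annotated sequences above.
miR-411-5p, start 1 base earlier: aUAGUAGAccguauagcguacg
miR-409-3p, start 1 base earlier: cGAAUGUUgcucggugaaccccu

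Among lower members, 73.1% of the reads of miR-127-5p and 63.6% of those of miR-323a-3p began 1 base before the annotated start. All 71 reads of miR-134-3p began 1 base after it.

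The members that begin with UGG, 6 of 78, were all low, with mean levels of 0.139 to 12.3 RPTM, and 26 other members had a higher mean than any of them. miR-379-5p, the first hairpin of the downstream group, had 254 reads in all, against 202695 of its neighbour miR-411-5p. Over whole libraries, reads that begin with UGG were 0.182% to 2.21% of the valid reads, and 3.11% of all distinct mature sequences begin so. The tissue markers miR-1-3p, miR-206-3p and miR-122a-5p begin with UGG too, and miR-1-3p was 940 and 527 RPTM in muscle, where miR-133a-3p was 129703 and 144690. The 3′ adapter that the study's methods give also begins with TGG. Whether adapter removal or another step lowered the number of reads with this start was not tested, and the same holds for the level of these 6 members relative to others.
miR-379-5p: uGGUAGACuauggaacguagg
miR-299-5p: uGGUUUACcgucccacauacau
miR-654-5p: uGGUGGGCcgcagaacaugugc
miR-541-3p: uGGUGGGCacagaauccggacu

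Adenosine that is deaminated to inosine by ADAR enzymes is read as guanosine, and A-to-G changes were therefore counted in the reads of the members. A site had to reach 5% of the reads with at least 10 changed reads and an adjusted p under 0.05, tested one-sided with the exact binomial distribution at an error rate of 0.001, in at least 1 profile. Of 319 adenosines in members 5 passed (1.57%), against 21 of 3411 in other mature miRNAs (0.616%). No member had a site with A-to-C or A-to-U changes by the same criteria. The sites were position 5 of miR-411-5p (A5G), position 4 of miR-381-3p (A4G), position 6 of miR-337-3p (A6G), position 5 of miR-379-5p (A5G) and position 10 of miR-377-3p (A10G), counted from 1 at the 5′ end of the annotated mature miRNA. The first 4 lie in the seed and follow a U. The changed base is in capitals in these sequences.
miR-411-5p, unchanged: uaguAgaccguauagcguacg
miR-411-5p, changed: uaguGgaccguauagcguacg
miR-381-3p, unchanged: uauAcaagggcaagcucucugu
miR-381-3p, changed: uauGcaagggcaagcucucugu

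miR-411-5p passed in 8 of the 12 profiles, and 27903 of 230703 reads over the site were changed. The levels in RPTM above count exact matches and leave the changed reads out. The level was 17.7% in spinal cord (Wilson 95% interval 17.5 to 18), 12.9% in occipital lobe (12.7 to 13.1), 11.1% in lung (10.4 to 11.9), 7.36% in liver, 7.94% and 7.77% in kidney, 5.86% and 4.65% in small intestine, 5.18% and 3.34% in large intestine and 3.58% and 3.55% in muscle. Both neural profiles were above the other 10, and the paired profiles of kidney and of muscle had overlapping intervals. The neural mean was 15.3% ± 3.44 (SD, n = 2) and that of the other profiles 6.03% ± 2.50 (SD, n = 10), and an exact two-sided permutation test over profiles gave p = 0.0303, the smallest that 2 against 10 can give, or 0.0606 adjusted over the 2 sites tested. The order of tissues differed from that of the expression level, since lung, at 2678 RPTM, was above liver, at 10380 RPTM, in the share of changed reads. In all, C or U in place of this A was found in 82 and 23 reads.

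The changed reads were not spread alike over the 2 starts of miR-411-5p. Reads that began 1 base earlier were changed at 14.2% over all profiles and reads with the annotated start at 9.86%. The earlier start had the higher level in 11 of 12 profiles, the exception being small intestine 2, with a mean difference of 2.20 percentage points ± 1.76 (SD, n = 12, exact two-sided sign-flip permutation test over profiles, p = 0.00098). This comparison was chosen after the values were seen.

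miR-381-3p had lower levels and another tissue order. It was 5.04% in spinal cord (4.68 to 5.44, 12692 reads), the profile that passed, 1.97% in occipital lobe (1.80 to 2.15), 3.88% in liver, 4.01% in lung, 4.84% and 4.01% in kidney, 2.28% and 1.32% in small intestine, 2.66% and 1.86% in large intestine and 2.21% and 1.22% in muscle. The neural profiles spanned the range of the others, and the same permutation test gave an exact p of 0.515. The other 3 sites rested on few reads: 10 of 16 in spinal cord for miR-337-3p, 12 of 122 in spinal cord for miR-379-5p and 15 of 52 in occipital lobe for miR-377-3p.

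**Figure D5:**
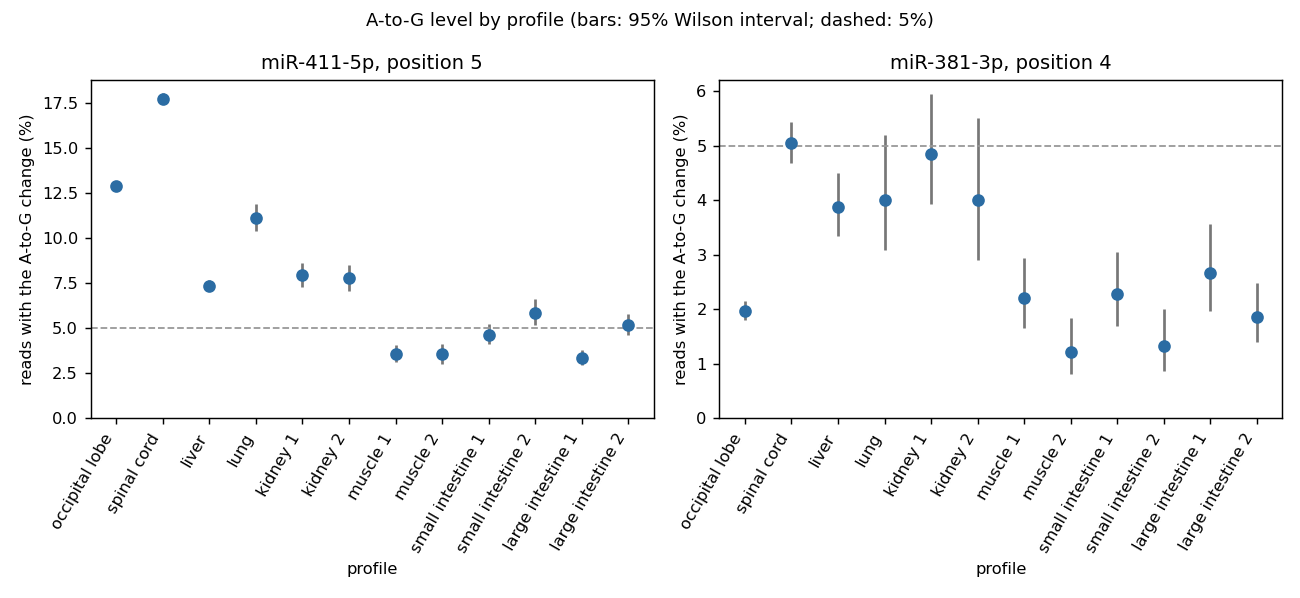
Share of reads with the A-to-G change (vertical axes, in percent) at position 5 of miR-411-5p (left) and position 4 of miR-381-3p (right) in the 12 profiles (horizontal axes), with Wilson 95% intervals as bars and a dashed line at 5%. Spinal cord is highest at both sites with 17.7% and 5.04%, and occipital lobe is second for miR-411-5p but low for miR-381-3p.

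The miR-376 hairpins of the same stretch, which were left out, summed to 70.8 RPTM in occipital lobe, 71.1 in spinal cord, 25.8 in liver and 3.49 to 8.93 in the other profiles. In this sum, too, the neural profiles were above liver and liver above the rest, but not in each sequence. Most of the neural sums came from miR-376a-1-5p, at 49.5 RPTM in occipital lobe and 62.3 in spinal cord. miR-376b-3p was 4.84 RPTM in liver, 1.30 in occipital lobe and 1.25 in spinal cord, and miR-376c-3p was 17.7, 17.8 and 6.69. The sums count exact matches, so that reads with an A-to-G change are left out.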

How the data were processed

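The deposited files hold raw counts: the authors removed 3′ adapters, kept reads of good quality with at least 18 nucleotides and counted each unique sequence, without normalization. Mature and pre-miRNA sequences were taken from the study's list, of which 832 pre-miRNAs could be read. No genome was used here. In Python 3.11.15 (pandas 2.3.3, scipy 1.17.1), reads were given to a mature miRNA where they lay in its hairpin without mismatch and with both ends within 2 nucleotides of the mature ends, and counted for each sequence they matched. Counts of 371 miRNAs (mean of at least 5 RPTM, SD of at least 1) were fitted with edgeR 4.0.16 (quasi-likelihood, TMM) in R 4.3.3, with 7 groups and Benjamini-Hochberg adjustment over all 371. The SE is the log2 fold change over the square root of F. Tested on simulated counts for the neural comparison, 95.9% of 74 miRNAs changed 8-fold among 371 were called, with 2 false calls. Changed bases were counted outside the first and the last 2 nucleotides of a read, leaving out changed sequences that match a pre-miRNA exactly.

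The depth was 22118095 to 25579064 reads per profile, and intervals cover counting error only, since the reads carry no molecular identifiers. The unit RPTM follows the authors. Alternatives were total reads, DESeq2 1.42.0, other filters, reads identical to the mature sequence, 8 groups, leaving out profiles and a replicate block. The named members were, by rule, the 8 with the highest mean, the 8 with the largest neural change, the called members of each comparison (up to 6 per direction by p in muscle comparisons, 3 in others), the 3 highest and lowest ratios of occipital lobe to spinal cord, the 3 widest arm shares, the A-to-G sites and the single-arm hairpins with most other-arm reads. Others named in the text were chosen after their values were seen. The members and lists were chosen with earlier results of these data known.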

Additional observations from a re-analysis of the deposited data

Results flagged for a closer look

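Reads were found on arms for which the list annotates no mature miRNA, above the 3 reads that a count of 0 allows, in 5 hairpins of the cluster. The 3p arm of mir-136 had 14170 reads, the 3p arm of mir-431 had 2445, the 3p arm of mir-539 had 621, the 3p arm of mir-770 had 16 and the 5p arm of mir-544 had 14. For mir-136, mir-431, mir-539 and mir-544 the other arm had more reads than the annotated one, with 82.0%, 84.8%, 92.3% and 77.8% of the reads of the hairpin. The reads of mir-770 3p and mir-544 5p came from the neural profiles alone. Apart from the levels of the mir-136, mir-431 and mir-539 arms and the ratio of the mir-136 3p arm between the neural profiles, no comparison above counts these reads. None of these arms was tested between tissues.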

How the results depend on the processing

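With reads as a share of those assigned to miRNAs, the summed neural mean was 8.38 times that of the other groups, the lower neural profile 2.17 times liver, and liver 5.21 times the next non-neural profile. With TMM scaling, chosen after seeing the data, these were 4.93, 1.95 and 2.12, and occipital lobe over spinal cord turned to 1.10. With reads identical to the mature sequence the neural ratio was 12.8 and occipital lobe over spinal cord 0.637. Without the most abundant member these were 12.9 and 0.613, and liver was 3.24 times the next. The range of the mir-299 arm share fell to 9.52 percentage points with identical reads. The cause of these shifts was not tested.

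Of the 38 members higher in the neural tissues, 38 were also called with total reads and 35 with DESeq2. With total reads 232 of all 371 miRNAs were called higher in the neural tissues, against 162 in the main fit. For the other counts of calls in this section the share over all miRNAs is not given. A minimum mean of 50 RPTM left 16 members in the fit and called 16 higher in the neural tissues and 15 against muscle, and identical reads left 26 and called 23 in both comparisons. One member, miR-431-5p, was lower in the neural tissues with DESeq2 (count of 1) and without a filter (1), and against muscle without a filter (1). In muscle DESeq2 and 8 groups each gave 2 lower. In large intestine the 1 higher member became 0 with total reads, the minimum of 50 and identical reads. In small intestine total reads gave 3 lower. Leaving out 1 profile at a time, liver being added after seeing the data, gave 28 to 41 higher and 0 to 1 lower in the neural tissues, 27 to 40 higher and 0 to 1 lower against muscle, 0 to 2 lower in muscle, 0 to 4 higher in large intestine and no other call of a member. The filter was applied again for each profile left out and left 34 to 46 members in the fit, so that these counts have different totals. With 1 profile left out, the neural change of miR-493-5p ranged from -1.26 to 0.37 and that of miR-493-3p from -1.21 to 0.31, and with total reads these were 1.04 and 1.0.

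A replicate block could be fitted on the 8 numbered profiles alone. It gave 1 member lower in muscle, 1 higher in kidney, 1 lower in small intestine and 2 higher in large intestine, and the same profiles without the block gave 3, 1, 1 and 2. The labels do not say that a number marks an animal, and deviations of profiles with the same number had a mean correlation of 0.0199 (-0.207 to 0.180 over 6 pairs of tissues).

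The 5 A-to-G sites became 3 at a minimum level of 10%, 2 at 30 changed reads and 3 with reads at the annotated 5′ end. Over all alternatives 206 values that answer a comparison stayed, 49 moved and 1 turned. Among fold changes of single members 493 stayed, 20 lost their call (miR-369-3p, miR-668-3p, miR-136-5p and miR-299-5p) and 5 turned (miR-493-5p and miR-493-3p, the latter also without liver, at 0.04). For the neural and liver comparisons, the single profiles of liver, lung, occipital lobe and spinal cord limit what can be tested, and members under about 10 reads cannot be ordered between tissues.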
